A study of Mus musculus with 12 samples.

Results

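The genes described here are 31 genes that mark the epithelium of the choroid plexus, read in the cerebellum of 12 mice aged 6 weeks. They were chosen by name, as genes known for that epithelium, but with earlier results of these data known. Each was taken from the probe set that the array annotation assigns to it. Where a gene has several, the one with the highest mean over the 12 arrays was used. Of the 31 genes, 28 were measured, out of 12672 genes tested in all. Enpp2 and Prlr are not analysed here. Mfrp is not described either, since its probe set is shared with C1qtnf5.

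The mice form 4 groups of 3, with 1 array per mouse, all on a C57BL/6 background. The first group is homozygous for a knockin allele with 118 glutamine codons (MPI 118Q/118Q), and the second holds its wild type littermates. The third is homozygous for the same kind of allele with 11 glutamine codons (MPI 11Q/11Q), and the last holds its own wild type littermates. The study concerns spinocerebellar ataxia type 6, a disease of expanded glutamine repeats in Cacna1a, the gene of a neuronal calcium channel. The labels do not explain the prefix MPI, give no sex, name the tissue as cerebellum and do not mention the choroid plexus. Values are log2 expression per probe set as the authors deposited them, and the level of one gene is not set against that of another.

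The choroid plexus is a folded sheet of epithelial cells around leaky capillaries that hangs into the brain's ventricles, including the fourth ventricle, which borders the cerebellum. Its cells make cerebrospinal fluid by moving ions and water from blood to ventricle, seal the gap between cells with tight junctions, and secrete carrier proteins and growth factor binding proteins into the fluid. The granule cells, Purkinje cells and glia of the cerebellum itself make little or none of its most typical products, such as transthyretin.

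Promoter sequences are shown for 5 of the genes, because the genes moved together over the arrays and lie apart in the genome: the 28 measured genes are spread over 13 chromosomes, and none lies on chromosome 8, which carries Cacna1a. The sequences are from RefSeq, build GRCm38.p6, and run from 250 bases before the annotated start to 50 bases after it. Capitals mark TATAAA on either strand (TATAAA or TTTATA) and the core that OTX homeobox proteins bind, TAATCC or GGATTA on either strand, and the 2 motifs overlap in the Ace sequence. Kl encodes klotho, Kcne2 a potassium channel subunit, Kcnj13 an inwardly rectifying potassium channel, Cldn2 a tight junction protein and Ace angiotensin-converting enzyme. Their windows are chr5:150952357-150952656 on the plus strand for Kl, chr16:92292139-92292438 on the plus strand for Kcne2, chr1:87394680-87394979 on the minus strand for Kcnj13, chrX:139800558-139800857 on the plus strand for Cldn2 and chr11:105967698-105967997 on the plus strand for Ace.
Kl: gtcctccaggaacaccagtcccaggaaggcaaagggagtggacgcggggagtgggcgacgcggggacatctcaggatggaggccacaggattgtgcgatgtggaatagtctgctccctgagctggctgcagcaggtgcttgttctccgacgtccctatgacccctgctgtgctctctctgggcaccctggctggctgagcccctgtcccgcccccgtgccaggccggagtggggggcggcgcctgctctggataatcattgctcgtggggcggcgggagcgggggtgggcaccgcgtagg
Kcne2: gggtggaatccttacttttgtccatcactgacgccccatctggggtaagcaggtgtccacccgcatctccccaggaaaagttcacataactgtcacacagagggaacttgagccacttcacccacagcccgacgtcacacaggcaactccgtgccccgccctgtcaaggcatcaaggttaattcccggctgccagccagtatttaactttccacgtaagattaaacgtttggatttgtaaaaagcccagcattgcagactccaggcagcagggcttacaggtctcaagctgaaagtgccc
Kcnj13: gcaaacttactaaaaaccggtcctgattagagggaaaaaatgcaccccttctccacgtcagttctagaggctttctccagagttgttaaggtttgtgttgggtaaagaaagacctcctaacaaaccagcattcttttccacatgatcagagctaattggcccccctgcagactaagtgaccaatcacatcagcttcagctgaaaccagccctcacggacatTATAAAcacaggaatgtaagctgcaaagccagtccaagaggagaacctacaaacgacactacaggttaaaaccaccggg
Cldn2: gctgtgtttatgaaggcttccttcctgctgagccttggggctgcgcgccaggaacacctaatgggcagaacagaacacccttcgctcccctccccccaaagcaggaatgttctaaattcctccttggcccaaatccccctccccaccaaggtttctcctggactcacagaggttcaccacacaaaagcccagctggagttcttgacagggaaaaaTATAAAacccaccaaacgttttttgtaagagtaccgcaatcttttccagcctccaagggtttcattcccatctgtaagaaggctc
Ace: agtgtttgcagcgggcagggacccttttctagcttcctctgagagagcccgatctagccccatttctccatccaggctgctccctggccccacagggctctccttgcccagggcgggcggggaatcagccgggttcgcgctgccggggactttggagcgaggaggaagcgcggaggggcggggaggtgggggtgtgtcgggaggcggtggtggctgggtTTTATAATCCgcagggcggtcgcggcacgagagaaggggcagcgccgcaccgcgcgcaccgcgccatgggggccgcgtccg

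In the Kcnj13 and Cldn2 promoters a TATAAA begins 29 and 35 bases before the start, and in Ace its reverse complement begins 31 bases before it. Kl and Kcne2, whose levels ranged nearly as widely as any, held neither motif in the windows shown. Over the 32 annotated promoters of 22 of the named genes, 5 (15.6%) held TATAAA, against 13.6% of all 32851 promoters in the RefSeq table. The OTX core was in 3 of the 32 (9.38%), those of Ace, Mfrp and Otx2, against 7.06% of all promoters. Both shares are near those of all promoters, so neither motif sets these promoters apart in these windows. Their median GC content was 58.2%, against 52.7% for all promoters.

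Ttr encodes transthyretin, the carrier of thyroid hormone and of retinol-binding protein that the choroid plexus secretes into cerebrospinal fluid. It read 11.79, 11.39 and 8.66 in 118Q knockins (replicates 1, 2 and 3), against 11.88, 6.25 and 11.82 in their wild type littermates. In 11Q knockins it read 7.68, 5.26 and 11.79, against 11.93, 11.88 and 11.88 in their wild type littermates. Ttr was thus low in 4 arrays, which are replicates 1 and 2 of the 11Q knockin, replicate 2 of the 118Q line's wild types and replicate 3 of the 118Q knockin, and high in the other 8. The highest and the lowest array lay 6.67 log2 units apart, a 102-fold difference. These 4 arrays fall in 3 of the 4 groups, and only the wild types of the 11Q line held no low array. In bulk tissue, fewer cells of a type and less RNA per cell cannot be told apart, for Ttr or for any gene below.

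Over the 8 high arrays the readings of Ttr spanned 0.54 log2 units. Other genes spread more over the same 8 arrays: klotho spanned 1.72 and factor V, the widest, 2.06 log2 units. The 8 high readings of Ttr lay near the upper end of the array scale, since the highest value of any probe set was between 11.81 and 12.13 in the 12 arrays. Whether an upper limit of the scale narrowed the spread of Ttr was not tested.

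**Figure D1:**
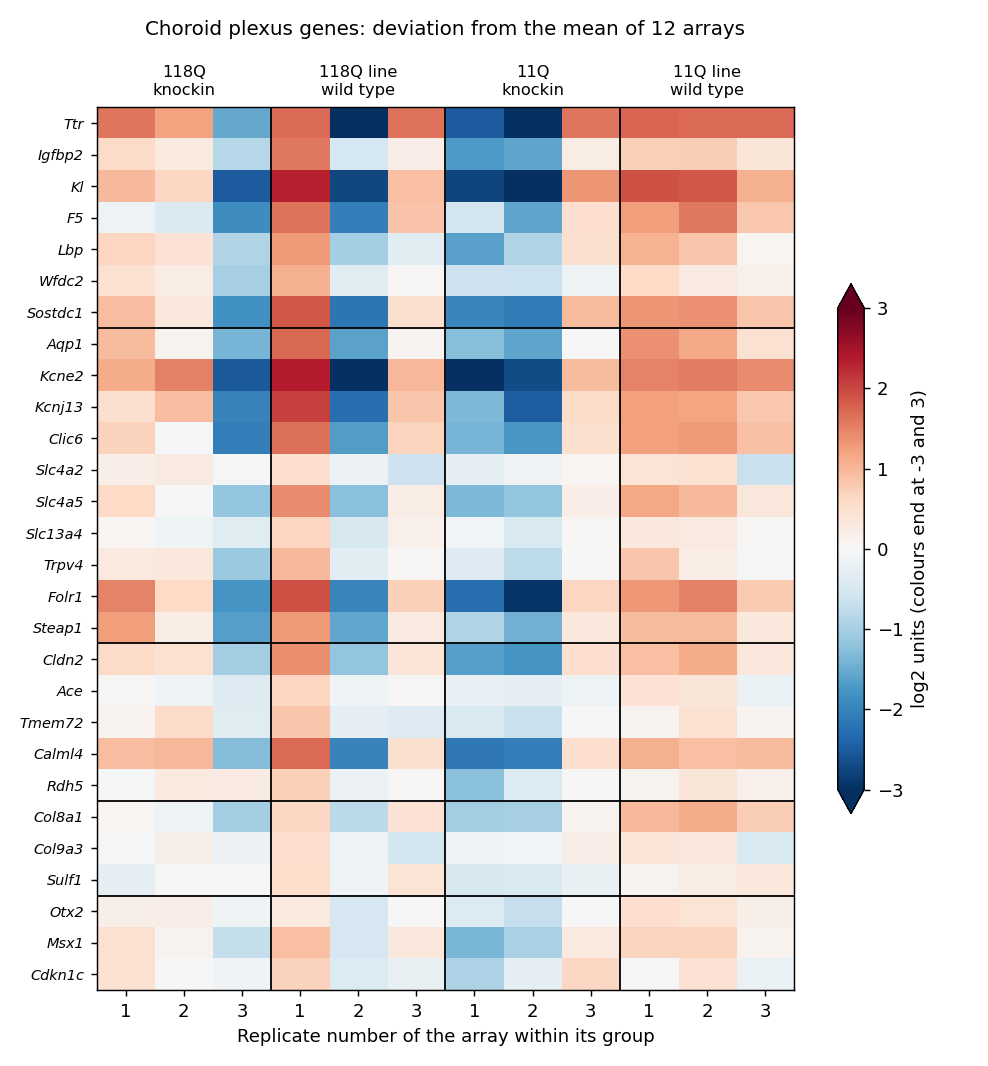
Deviation of each of the 28 measured choroid plexus genes (rows, grouped by role) from its own mean over the 12 arrays (columns, by group and replicate), in log2 units, with colours ending at -3 and 3. In 20 of the 28 rows the 4 lowest cells lie in the same columns: 118Q knockin replicate 3, replicate 2 of its line's wild types, and 11Q knockin replicates 1 and 2.

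Apart from Ttr, 6 secreted proteins were measured, and all 6 had the same 4 lowest arrays as Ttr. Klotho (Kl), a co-receptor for a hormone-like fibroblast growth factor that is also shed into cerebrospinal fluid, read 4.50, 4.15 and 1.03 in 118Q knockins, against 5.87, 0.79 and 4.44 in their wild type littermates. It read 0.77, 0.55 and 4.85 in 11Q knockins, against 5.45, 5.38 and 4.60 in their wild types. In each of the 4 arrays low in Ttr, klotho lay under 1.58, the mean below which probe sets were left out of the tests, and its range was 5.32 log2 units.

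Igfbp2, an insulin-like growth factor binding protein, read 6.80, 6.51 and 5.37 in 118Q knockins, against 7.81, 5.70 and 6.43 in their wild type littermates. In 11Q knockins the readings were 4.50, 4.63 and 6.43, against 6.95, 6.95 and 6.57 in their wild types. The same 4 arrays were lowest, but replicate 1 of the 118Q line's wild types stood above every other array. Among the rest, Sostdc1, a secreted antagonist of bone morphogenetic protein and Wnt signalling, ranged over 4.02 log2 units and F5, coagulation factor V, over 3.67. Lbp, which binds bacterial lipopolysaccharide, ranged over 2.92, and Wfdc2, a small secreted protein with protease inhibitor domains, over 2.05.

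The 10 genes for ion, water and solute transport were all measured, and 8 had the same 4 lowest arrays as Ttr. Kcne2, a subunit that modifies potassium channels, read 4.72, 5.11 and 1.08 in 118Q knockins, against 5.96, 0.54 and 4.60 in their wild type littermates. Its readings were 0.52, 0.93 and 4.56 in 11Q knockins, against 5.09, 5.15 and 5.03 in their wild types. Kcne2 thus fell into low and high arrays with no reading between 1.08 and 4.56, and its 4 low readings all lay under the filter level of 1.58.

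Folr1, the folate receptor through which the epithelium passes folate into cerebrospinal fluid, read 5.70, 4.81 and 2.45 in 118Q knockins, against 6.11, 2.23 and 4.91 in their wild type littermates. Its values were 1.93, 1.26 and 4.85 in 11Q knockins, against 5.50, 5.71 and 5.00 in their wild types. The 4 low arrays again lay clear of the other 8. Kcnj13, the potassium channel of the apical membrane, read 5.54, 5.98 and 3.07 in 118Q knockins, against 7.12, 2.81 and 5.90 in their wild types, and 3.70, 2.58 and 5.62 in 11Q knockins, against 6.30, 6.23 and 5.87 in their wild types. The same 4 arrays were lowest for Kcnj13, and wild type replicate 1 of the 118Q line stood above all the others.

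Clic6, of the chloride intracellular channel family, read 6.08, 5.34 and 3.33 in 118Q knockins, against 7.03, 3.71 and 6.04 in their wild type littermates. It read 3.99, 3.62 and 5.85 in 11Q knockins, against 6.60, 6.65 and 6.27 in their wild types. All 12 readings of Clic6 stayed above the filter level, so its range of 3.70 was measured between readings that each exceeded that level. The water channel Aqp1 ranged over 3.32, Steap1, of a family of metal reductases, over 2.93, the sodium bicarbonate cotransporter Slc4a5 over 2.75, and the cation channel Trpv4 over 2.08.

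The 2 transport genes with another order of arrays were the anion exchanger Slc4a2 and the sulphate transporter Slc13a4. Slc4a2, which many other cells also express, read 5.48, 5.57 and 5.26 in 118Q knockins, against 5.79, 5.11 and 4.67 in their wild type littermates. It read 4.99, 5.18 and 5.36 in 11Q knockins, against 5.71, 5.75 and 4.62 in their wild type littermates. The 2 lowest arrays of Slc4a2 were the third wild type of each line, which were not low in Ttr. Slc13a4 ranged over 1.11 log2 units, and 3 of its 4 lowest arrays were shared with Ttr.

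Among the junction, membrane and cytosolic proteins, 5 of 7 genes were measured. Cldn2, the claudin that lets sodium and water pass between epithelial cells, read 3.91, 3.80 and 2.31 in 118Q knockins, against 4.74, 2.15 and 3.72 in their wild type littermates. It read 1.68, 1.56 and 3.85 in 11Q knockins, against 4.25, 4.46 and 3.68 in their wild types. Cldn2 and the calmodulin-like protein Calml4, which ranged over 3.85 log2 units, had the same 4 lowest arrays as Ttr. Ace, Tmem72, a membrane protein, and Rdh5, a retinol dehydrogenase, shared 3 of them and ranged over 1.04, 1.49 and 1.95.

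The 3 matrix genes varied least as a group, with a median range of 1.06 log2 units. Col8a1, a network-forming collagen, had the 4 lowest arrays of Ttr and ranged over 2.16. Col9a3, a collagen that sits on other fibrils, read 5.64, 5.86 and 5.51 in 118Q knockins, against 6.18, 5.53 and 5.12 in their wild type littermates, and 5.52, 5.60 and 5.86 in 11Q knockins, against 6.06, 6.01 and 5.22 in their wild types. Like Slc4a2, Col9a3 was lowest in the third wild type of each line. Sulf1, a sulfatase that trims heparan sulphate, ranged over 1.00, the narrowest range of the 28 genes.

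Otx2, the homeobox factor that specifies the choroid plexus and that granule cell precursors also use in development, read 5.46, 5.47 and 5.15 in 118Q knockins, against 5.58, 4.78 and 5.27 in their wild type littermates. It read 4.87, 4.59 and 5.26 in 11Q knockins, against 5.77, 5.70 and 5.45 in their wild types. Its range of 1.18 log2 units was far narrower than that of Ttr, yet its 4 lowest arrays were the same 4. The homeobox factor Msx1 shared them too, with a range of 2.26, and Cdkn1c, an inhibitor of the cell cycle, shared 3 with a range of 1.60.

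Of the 27 genes besides Ttr, 19 had exactly the 4 lowest arrays of Ttr, where 0.505% of all genes tested did. At least 3 of the 4 were shared by 24 of them, against 4.78% of all genes. Counting Ttr, in 12 genes each of the 4 lowest readings lay at least 1 log2 unit under the fifth lowest. The highest array was replicate 1 of the 118Q line's wild types in 25 of the 28 genes, where this was so in 5.63% of all genes.

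The median deviation of the 28 genes from their own means summarises each mouse. It was 0.47, 0.25 and -1.04 log2 units in 118Q knockins, against 1.28, -0.92 and 0.24 in their wild type littermates. In 11Q knockins it was -1.26, -1.09 and 0.25, against 0.93, 0.88 and 0.33 in their wild types. None of the 28 genes was above its mean in either low array of the 11Q knockin or in the low array of the 118Q line's wild types, and 1 was in the low array of the 118Q knockin. Among the 8 other arrays the deviations still differed, with 1 wild type of the 118Q line and 2 from the other line well above the remaining 5.

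The 18S ribosomal RNA control signal of the arrays averaged 9.23, 8.63 and 8.56 in 118Q knockins, against 9.78, 9.66 and 10.32 in their wild type littermates. It averaged 10.10, 10.27 and 10.36 in 11Q knockins, against 10.24, 10.54 and 10.53 in their wild types. In each of the 3 groups that held them, the arrays low in Ttr had the lowest 18S signal of their own group. Between the groups the order was another one, with all 3 118Q knockins below every other array. With this signal as a covariate no choroid plexus gene was called in limma in any of the 5 comparisons. That fit called 1 of all genes between the wild types and 0 in every other comparison, against 1732 between the knockins without the covariate. The covariate also overlaps with the 118Q knockin group, so the lack of calls carries little weight. The median difference of the 28 genes became 0.98 in the 118Q line and -1.25 in the 11Q line. The part of the 18S signal, or of what it measures, in the pattern was not otherwise tested.

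**Figure D2:**
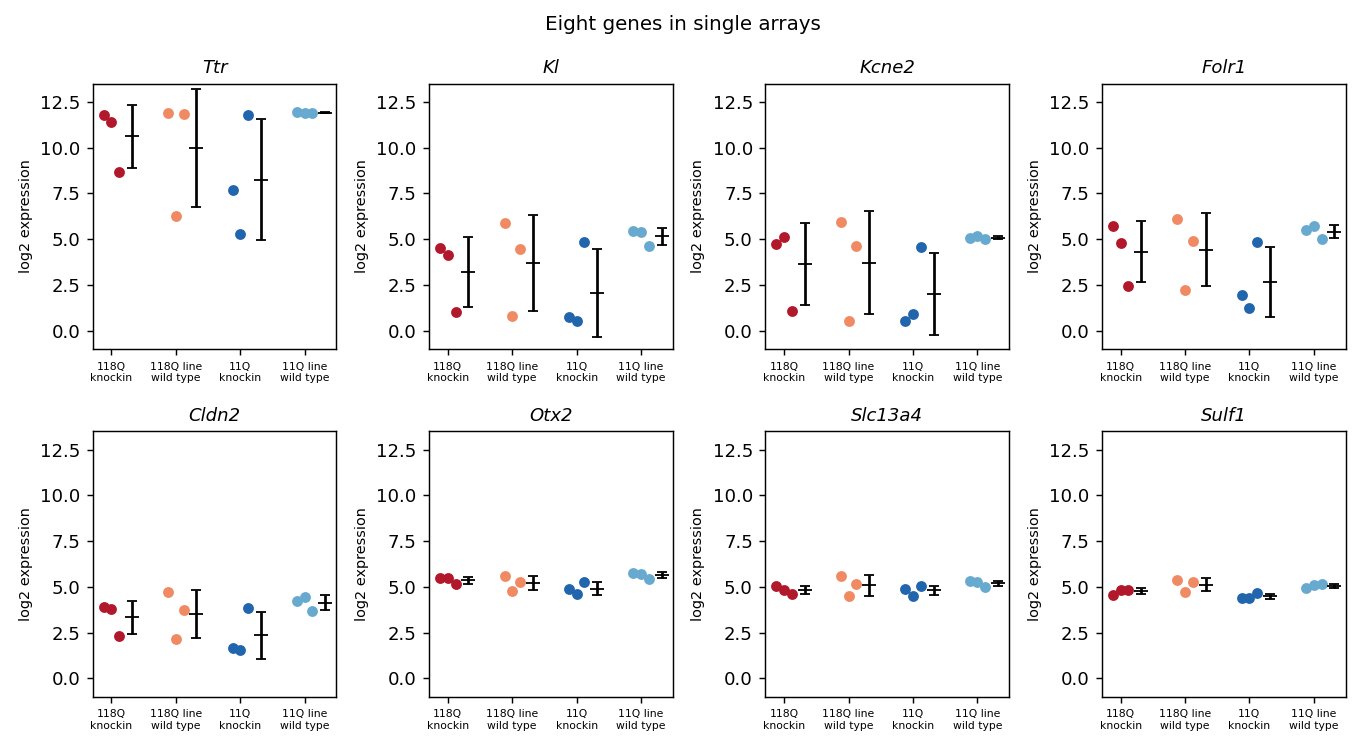
Log2 expression of 8 choroid plexus genes in single arrays (points, replicates 1 to 3 from left to right within a group) with the mean and SD of each group beside them (n = 3). Ttr, Kl, Kcne2 and Folr1 drop by several log2 units in 4 arrays of 3 groups, Cldn2 by less, while Otx2, Slc13a4 and Sulf1 stay within 1.18 log2 units over all 12 arrays.

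This pattern made the genes vary far more between littermates of 1 genotype than other genes did. The SD between arrays of the same group, pooled over the 4 groups (residual SD), had a median of 0.894 log2 units over the 28 genes and ran up to 2.46 for Ttr, against a median of 0.174 over all genes tested. It was 1 log2 unit or more in 12 of the 28, where 18 of all 12672 genes (0.142%) reached that value. The other 6 were Ecrg4, Car12 and Htr2c, which are also known for the choroid plexus, and Prr32, Lamp5 and Sox2ot, and Lamp5 and Sox2ot alone among the 18 did not share the 4 lowest arrays of Ttr. The residual SD of 20 of the 28 genes lay above the 99th percentile of all genes, which 1.00% of genes exceed. At the other end, Sulf1 had a residual SD of 0.214. Without the 4 arrays the median residual SD of the 28 genes was 0.461, and their median range over the 8 other arrays was 1.22 log2 units.

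**Figure D3:**
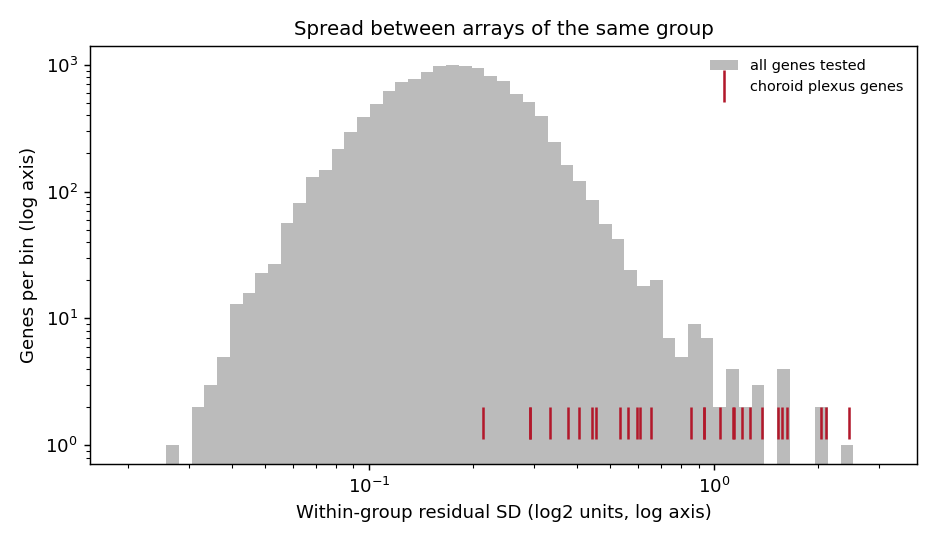
Residual SD between arrays of the same group (horizontal axis, log2 units on a log axis) for all genes tested (grey bars, genes per bin on a log axis) and for the 28 choroid plexus genes (red lines). The red lines run from 0.214 for Sulf1 to 2.46 for Ttr, with a median of 0.894 against 0.174 for all genes.

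In the 11Q line, all 28 genes had lower means in knockins than in their wild type littermates, where 59.3% of all genes did. The median difference was -1.503 log2 units, against -0.04 for all genes, and single genes ran from -3.65 for Ttr to -0.10 for Col9a3. None was called at an adjusted p below 0.05 in limma, where 0% of all genes were, and the smallest adjusted p of the 28 was 0.939. At an unadjusted p below 0.05, 19 of the 28 genes were lower and none higher, against 3.13% of all genes lower. The knockin and wild type readings did not overlap in 17 genes, each lower in knockins, against 7.17% of all genes. Of the 3 knockins 2, and of the wild types none, are among the 4 low arrays, and the 28 genes share these mice, so they do not count as independent observations.

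Ttr averaged 8.25 ± 3.30 in 11Q knockins and 11.90 ± 0.03 in wild type littermates (SD, n = 3 each), a difference of -3.65 ± 1.60 (SE; limma adjusted p = 0.939). The spread of the knockins alone was nearly as large as the difference. Col8a1 averaged 2.56 ± 0.66 in 11Q knockins and 4.15 ± 0.19 in wild type littermates (SD, n = 3 each). Its difference was -1.59 ± 0.40 (SE; unadjusted p = 0.00158 in limma, adjusted p = 0.939), the smallest unadjusted p of the 28. Each knockin read lower than each wild type for Col8a1, at 2.16, 2.20 and 3.32 against 4.17, 4.32 and 3.95 in their wild types, and this includes knockin replicate 3, which was not low in Ttr. Sulf1 differed by -0.60 ± 0.16 and Otx2 by -0.73 ± 0.21 (SE; adjusted p = 0.939 in limma for both), again without overlap between the groups. Dimmer probe sets above the filter level did overlap. A second one of Col8a1 read 1.62, 1.56 and 3.16 in 11Q knockins, against 3.52, 3.03 and 2.64 in wild types. A second one of Sulf1 read 2.65, 2.97 and 3.17, against 3.34, 2.82 and 4.02.

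Without the 4 low arrays the 11Q comparison rested on 1 knockin and 3 wild types. The median difference was then -0.36, and 26 of the 28 genes were below 0. One gene was lower at an unadjusted p below 0.05, against 1.06% of all genes, and no gene was called. The lone knockin is assumed to vary like the other groups in this fit, which has 4 residual degrees of freedom, and the arrays left out were those low in Ttr itself, so the lack of calls carries little weight. The single remaining knockin read below all 3 wild types in 17 genes and above all 3 in 1, against 28.8% and 18.5% of all genes. Ttr differed by -0.11 in this fit.

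**Figure D4:**
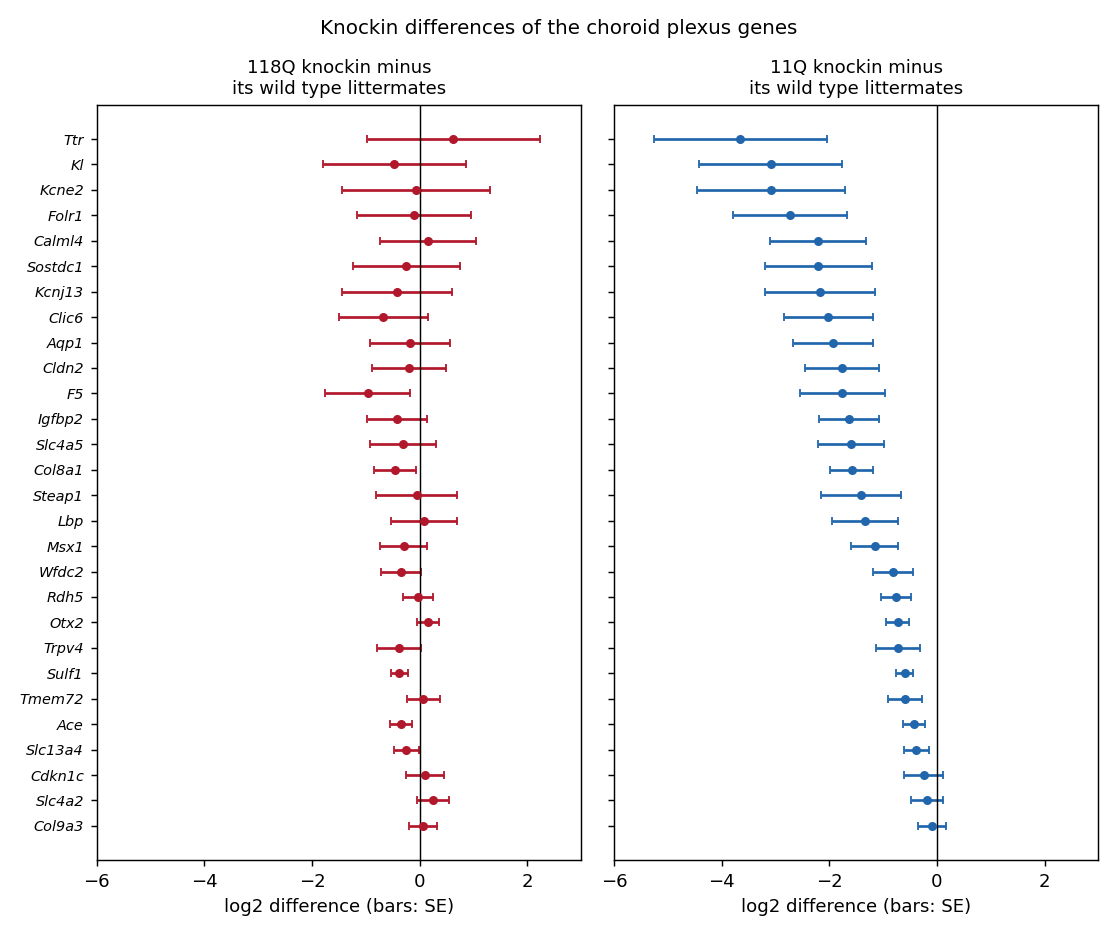
Knockin minus wild type difference of each of the 28 choroid plexus genes in the 118Q line (left) and the 11Q line (right), in log2 units, with bars of 1 SE from limma. In the 11Q line all 28 points lie below 0, from -3.65 to -0.10, and in the 118Q line they run from -0.96 to 0.63, and none passed an adjusted p of 0.05 in either line.

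In the 118Q line, no gene of the 28 was called in limma, against 0.189% of all genes. The median difference was -0.22 log2 units, against 0.06 for all genes, and it ran from -0.96 for F5 to 0.63 for Ttr. Each group of this line held 1 low array, and for each of the 28 genes the knockin and wild type readings overlapped, while the groups did not overlap in 15.1% of all genes, higher in knockins, and in 7.24%, lower. Ttr averaged 10.61 ± 1.70 in knockins and 9.99 ± 3.24 in wild types (SD, n = 3 each), a difference of 0.63 ± 1.60 (SE; limma adjusted p = 0.863). Sulf1 had the smallest p, at 4.75 ± 0.17 in knockins and 5.12 ± 0.35 in wild types (SD, n = 3 each; difference -0.37 ± 0.16 SE, limma adjusted p = 0.235).

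The direction in the 118Q line turned with single wild types. Leaving out replicate 1 of the wild types gave a median difference of 0.37, and leaving out their replicate 2 gave -0.85 for the median and -1.24 for Ttr. Without all 4 low arrays, 2 knockins remained against 2 wild types. The median was then -0.35, and 4 genes were lower at an unadjusted p below 0.05, against 3.59% of all genes, with none called.

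The difference between the knockin effects, 118Q minus 11Q, was above 0 in all 28 genes, against 62.3% of all genes, with a median of 1.17 log2 units. No gene was called in limma, where 0% of all genes were. Otx2 had the smallest p, with a difference of effects of 0.88 ± 0.29 (SE; limma adjusted p = 0.346), from 0.15 in the 118Q line and -0.73 in the 11Q line. For Ttr it was 4.28 ± 2.27 (SE; adjusted p = 0.506 in limma). Without the 4 low arrays the median was -0.02, with 15 of 28 genes below 0. That fit kept only 1 knockin of the 11Q line, and the arrays left out were chosen as those low in Ttr, so it carries little weight.

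Set directly against the 11Q knockins, the 118Q knockins had higher means in 27 of 28 genes, against 62.5% of all genes, with a median difference of 0.60. None of the 28 was called in limma, although 13.7% of all genes were in this comparison. Rdh5 came nearest, at 4.91 ± 0.18 in 118Q knockins and 4.19 ± 0.63 in 11Q knockins (SD, n = 3 each), a difference of 0.72 ± 0.28 (SE; limma adjusted p = 0.0955). Its readings were 4.70, 5.03 and 5.00 in 118Q knockins, against 3.50, 4.33 and 4.74 in 11Q knockins, which overlap, and without 11Q knockin replicate 1 the difference was 0.38. Without the 4 low arrays the median was 0.10 and 10 of 28 genes were below 0. Here too 1 knockin of the 11Q line remained and the arrays left out were chosen by Ttr, so little weight rests on these values.

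The wild types of the 118Q line, set against those of the 11Q line, carried no knockin allele, and yet 27 of 28 genes had lower means in the 118Q line, against 47.1% of all genes. The median difference was -0.63, close in size to that between the knockins and of the opposite sign. None was called, as for all genes (0%). For Ttr the difference was -1.91 ± 1.60 (SE; adjusted p = 1.00 in limma). It rested on 1 mouse: without wild type replicate 2 of the 118Q line, the median over the 28 genes was 0.07 and Ttr differed by -0.05. Col8a1 was the 1 gene lower at an unadjusted p below 0.05, against 1.08% of all genes, at 3.28 ± 0.78 in the 118Q line and 4.15 ± 0.19 in the 11Q line (SD, n = 3 each).

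Further probe sets of the same genes, present for 13 of the 28, gave mixed results. All 4 probe sets of Ttr, both of Sostdc1, both of Clic6, both of F5 and both of Steap1 had the same 4 lowest arrays. Second probe sets of Cldn2, Kl, Lbp and Msx1 did not, and spanned 0.49, 0.65, 0.62 and 1.02 log2 units; those of Kl and Lbp lay under the filter level on average. Further probe sets of Col8a1 did not share all 4 either, and for Ace, Col9a3 and Sulf1 none of the probe sets did. The range of a gene is thus that of its brightest probe set, and the other Cldn2 probe set, which passed the filter, gave a difference of 0.09 in the 11Q line, against -1.77 for the one used.

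The 10 genes outside the list that followed Ttr most closely, ranked by Pearson's correlation over the 12 arrays, were Ecrg4, Prr32, Defb11, Smim22, Cab39l, Htr2c, Ppp1r3b, Mdfic, Car12 and Cgnl1. All 10 had the same 4 lowest arrays as Ttr, which largely sets this ranking, since the arrays fall into 2 clusters. Over the 8 other arrays alone the correlation with Ttr ran from -0.19 for Defb11 to 0.79 for Ppp1r3b. Ecrg4, which encodes a secreted peptide precursor made by the choroid plexus, read 7.26, 7.14 and 4.72 in 118Q knockins, against 7.87, 4.12 and 6.55 in their wild type littermates. It read 3.19, 3.43 and 6.87 in 11Q knockins, against 7.16, 7.45 and 6.86 in their wild types. Htr2c, a serotonin receptor of the plexus epithelium, read 5.15, 4.51 and 2.54 in 118Q knockins, against 5.82, 2.74 and 4.83 in their wild types, and 1.94, 2.17 and 4.69 in 11Q knockins, against 5.15, 5.26 and 5.78 in their wild types. Both genes were low in the 4 arrays and high in the others.

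A wider list of 48 other genes known for the choroid plexus, of which 39 were tested, showed the pattern less fully. The same 4 lowest arrays were found in 13 of the 39, against 0.505% of all genes, among them the keratins Krt8 and Krt18, the carbonic anhydrase Car12, the sugar transporter Slc2a12 and the claudin Cldn1. At least 3 of the 4 were shared by 24, against 4.78% of all genes. The median difference of the 39 genes was -0.08 in the 118Q line and -0.33 in the 11Q line. Many genes of this list, such as the ion pump subunit Atp1b1 and the carbonic anhydrase Car2, are also expressed by neurons or glia.

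In the wider list limma called no gene in either line, and between the knockins 4 of the 39 genes were higher and 1 lower in the 118Q mice, against 10.1% of all genes higher and 3.60% lower, a share near the background. Cd24a, a surface glycoprotein that cilia-bearing and immature neural cells also carry, was 1.21 ± 0.19 higher (SE; adjusted p = 0.00629), and Vamp8, a vesicle fusion protein, 0.90 ± 0.14 higher (SE; adjusted p = 0.00589). Car14, a carbonic anhydrase, and Slc5a5, the sodium iodide symporter, were 0.68 and 0.57 higher (adjusted p = 0.0340 and 0.0343). Strip2 was lower in 118Q than in 11Q knockins, by a difference of -1.09 ± 0.27 (SE; adjusted p = 0.0235). None of these 5 genes had the 4 lowest arrays of Ttr.

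Other cell types at the brain's borders were read from separate lists. Of 10 ependymal and cilium genes tested, Cfap126 had the 4 lowest arrays of Ttr and 7 shared at least 3, among them Foxj1, the regulator of motile cilia. Of all genes, 0.505% had exactly these 4 and 4.78% at least 3. In the wider choroid plexus list at least 3 were shared by 24 of 39. Since 7 of the 10 ependymal genes shared at least 3 as well, this trait is not particular to plexus genes. Foxj1 read 2.79, 2.72 and 2.25 in 118Q knockins, against 3.00, 2.20 and 2.25 in their wild types, and 2.60, 2.22 and 2.65 in 11Q knockins, against 2.86, 2.79 and 2.52 in their wild types. Its 4 lowest arrays did not include 11Q knockin replicate 1, which was low in Ttr. The median deviation of this list was 0.19, 0.49 and 0.13 in 118Q knockins, against 0.35, -0.35 and -0.09 in their wild type littermates. It was -0.51, -0.35 and -0.05 in 11Q knockins, against 0.07, 0.17 and 0.11 in their wild types. It was thus below 0 in 3 of the 4 low arrays and above 0 in 118Q knockin replicate 3. The part of ependymal cells in the pattern was not tested.

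Between the knockins, 4 of the 10 ependymal genes were called, each higher in 118Q than in 11Q mice, against 10.1% of all genes called higher. They were the dynein light chain Dynlrb2 (1.10 ± 0.24 SE, adjusted p = 0.0148 in limma), Tmem212 (0.67 ± 0.17 SE, adjusted p = 0.0230), 1110017D15Rik (0.86 ± 0.26 SE, adjusted p = 0.0480) and Ccdc153 (0.83 ± 0.25 SE, adjusted p = 0.0446). Mia read 0.79 higher with an adjusted p of 0.0559. In the difference of effects none passed, and Dynlrb2 and Mia stood at 1.25 and 1.28 (adjusted p = 0.346 for both).

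The remaining lists showed less of the pattern. Of 20 meningeal fibroblast genes, 0 had at least 3 of the 4 lowest arrays of Ttr, and the summed level of the list lay between 11.35 and 11.62 in 118Q knockins, against 11.45 to 11.66 in their wild types, and between 11.35 and 11.56 in 11Q knockins, against 11.25 to 11.45 in theirs (log2). This sum was taken over unlogged values, so it mainly follows the brightest gene, Ptgds, which alone read 10.785 to 11.249 over the 12 arrays. No gene of the blood-brain barrier endothelium, border macrophage, oligodendrocyte and cerebellar lists had exactly the 4 lowest arrays of Ttr. At least 3 of the 4 were shared by 1 of 11, 1 of 6, 0 of 9 and 0 of 11 of their genes in that order. In the 118Q line limma called 1 endothelial gene, Flt1, lower (-0.95 ± 0.16 SE, adjusted p = 0.047), against 0.110% of all genes. Between the knockins, 4 endothelial genes (Cldn5, Flt1, Abcb1a and Kdr) and 2 cerebellar genes were called lower in 118Q mice, against 3.60% of all genes. In the oligodendrocyte list 2 were called higher, against 10.1% of all genes. Of 4 genes of fenestrated vessels, such as those inside the choroid plexus, 0 had exactly these 4 lowest arrays and 2, Plpp1 and Igfbp3, shared 3 of them. Of all genes, 4.78% shared at least 3. Plpp1, a lipid phosphate phosphatase, differed by -0.57 in the 11Q line without overlap between the groups, and Igfbp3, an insulin-like growth factor binding protein, by -0.14 with overlap (limma adjusted p = 0.939 for both). Plvap, the diaphragm protein of fenestrated capillaries, shared none of the 4 and differed by 0.59 in the 11Q line (limma adjusted p = 0.939). Of 8 pineal genes only Aanat passed the filter, at 1.60 to 2.44 over the 12 arrays.

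**Figure D5:**
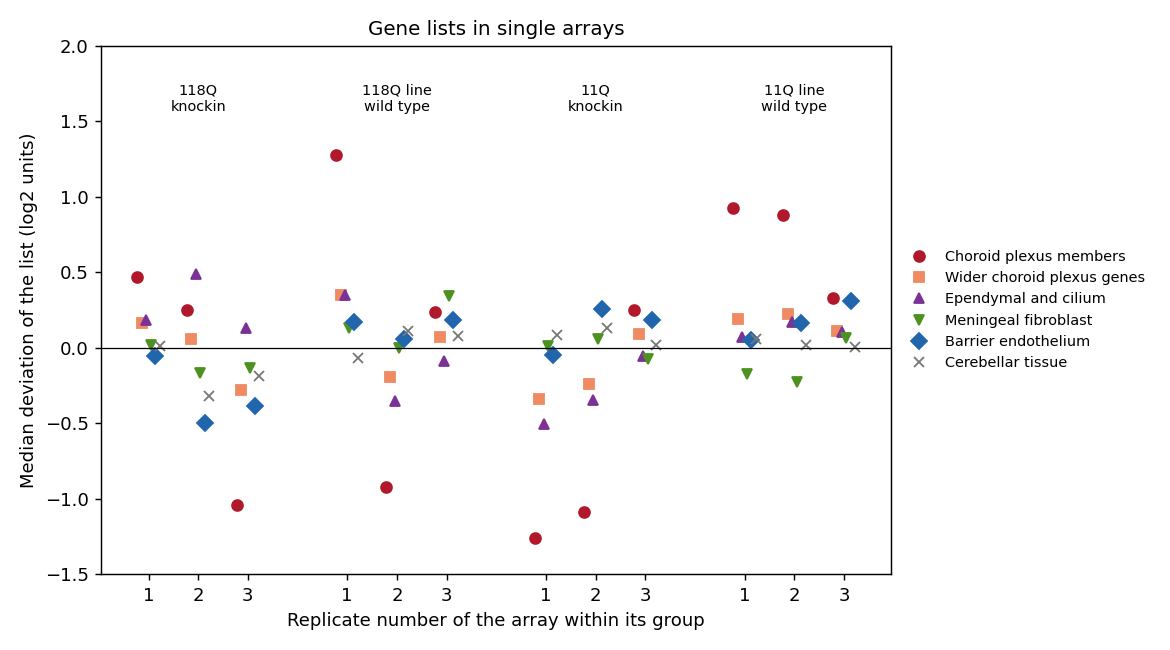
Median deviation of 6 gene lists from each gene's mean over the 12 arrays (vertical axis, log2 units) in single arrays (horizontal axis, by group and replicate). The choroid plexus genes (red circles) run from -1.26 to 1.28, and the wider list (orange squares) follows them in sign, from -0.34 to 0.35. The ependymal list (purple triangles) runs from -0.51 to 0.49. The meningeal, endothelial and cerebellar lists lie between -0.50 and 0.34, a span no smaller than that of the wider list.

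Ttr carries thyroid hormone and retinol, so genes that act on the same ligands were read too. Of 10 tested, 0 had the 4 lowest arrays of Ttr and 1 shared at least 3, against 0.505% and 4.78% of all genes. The median difference of this list was 0.10 in the 118Q line and 0.0015 in the 11Q line. Rbp4, the retinol-binding protein that circulates bound to transthyretin, read 4.39, 4.60 and 4.15 in 118Q knockins, against 4.12, 4.18 and 4.71 in their wild type littermates, and 4.01, 3.85 and 3.85 in 11Q knockins, against 3.47, 3.42 and 4.02 in their wild types. Of its 4 lowest arrays, 1 was among the 4 low in Ttr, 11Q knockin replicate 2. Between the knockins 2 of the 10 were called higher in 118Q mice, where 10.1% of all genes were. They were Dio2, which activates thyroid hormone, and Aldh1a1, which makes retinoic acid, at 0.98 and 0.53 (limma adjusted p = 0.0380 and 0.0159).

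Any 2 arrays correlated at 0.980 to 0.995 over all probe sets, and the array medians lay between 2.21 and 2.38, the lowest in 11Q knockin replicate 1. Summed levels of 11 cerebellar genes such as Pcp2, Gabra6 and Cbln1 stayed between 13.22 and 13.56 (log2) over the 12 arrays. Cacna1a, the gene that carries the knockin allele, read between 5.50 and 6.48 in all arrays, which does not check the labels, since it was read in every group. Limma called it lower in 118Q than in 11Q knockins (-0.68 ± 0.15 SE, adjusted p = 0.0162), as 3.60% of all genes were. Between the wild types of the lines it differed by -0.42, also without overlap but not called.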

How the data were processed

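Total RNA from the cerebellum of 12 mice was hybridised to expression arrays after one-cycle biotin labelling, and every sample had an RNA integrity number above 5.0, per the labels' protocols. The authors deposited log2 expression values per probe set, made with RMA per the submitters' processing notes; RMA ran in a version not given in the sources used here. Array medians of 2.21 to 2.38 are low for RMA values, so another background setting or a further step may have been used, and the lowest readings, with folds and ranges that rest on them, depend on it. No further normalization was applied.

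Of 45101 probe sets, 34958 had 1 gene symbol in the array annotation, 932 had several and 9211 none. The lowest 40% by mean over the 12 arrays (under 1.582) were removed, and for each symbol the probe set of highest mean remained, which left 12672 genes. All 28 measured choroid plexus genes passed this filter. A model of 4 group means was fitted to all 12 arrays with limma 3.58.1 in R 4.3.3 (8 residual and 4.61 prior degrees of freedom), with 5 contrasts, Benjamini-Hochberg adjustment over all genes and calls at an adjusted p below 0.05. The script was tested on simulated data. Precision is limited by having 3 arrays a group: the standard error of a group difference had a median of 0.587 for the 28 genes and 0.139 for all genes. Each array is 1 mouse as far as the labels say, and p-values measure the spread between these mice.

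The genes and lists were chosen with earlier results of these data known. Each of the 28 genes is named by role. All 12 values are given for Ttr, Otx2, Kl, Cldn2, Folr1 and Kcnj13, for the 5 genes with the highest mean and for the 5 with the largest residual SD; Rdh5 and Col8a1 were added after their values were seen. Outside the list, the 10 genes most correlated with Ttr are named. In the wider, ependymal, and thyroid hormone and retinoid lists the genes called are named, plus some with the smallest p in the difference of effects. Of the genes called in the other lists, only the endothelial ones are named. A few more genes are named as examples. Alternatives covered the filter, the probe set rule, normalization, variance model, array weights, the groups fitted, a replicate block, the 18S signal as covariate, thresholds and left-out arrays. Leaving out the 4 arrays lowest in Ttr, and the search for TATAAA, were added after seeing the data.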

Additional observations from a re-analysis of the deposited data

How the results depend on the processing

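The absence of calls among the 28 genes held in all 12 fits that left out 1 array (0 called in each of the 5 comparisons). With a looser rule, an unadjusted p below 0.05 and a fold of at least 1.5, 19 genes passed in the 11Q effect, all lower (0.789% of all genes passed), and 1 each in the difference of effects (Otx2; 3.47% of all), between the knockins (Rdh5; 6.87%) and between the wild types (Col8a1; 0.253%), shares near or below the background for Otx2 and Rdh5. Array weights gave 1 in the difference of effects (Otx2, 1.11, adjusted p = 0.0387 in limma) and 2 between the knockins (Rdh5, 0.6835, and Sulf1). The weighted fit stopped short of its convergence tolerance. It called 612 of all genes in the difference of effects, against 0 without weights, and 6111 between the knockins, against 1732. An adjusted p below 0.1 gave 1 between the knockins (Rdh5), where 2892 of all 12672 genes passed. The median residual SD of the 28 genes ran from 0.7695 to 0.9539 with 1 array left out and was 0.4605 without the 4 arrays low in Ttr.

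The sign of Ttr turned in several settings. Leaving out 1 array put its 118Q effect between -1.242 and 1.604, and the negative end is the fit without wild type replicate 2. Without the 4 low arrays it was -0.2644, the difference of effects -0.1549 and the difference between the knockins -0.201. These arrays were chosen by Ttr itself, and 1 knockin of the 11Q line remained without them. With the 18S signal as covariate the difference between the wild types was 0.3791. The cause of this last change was not tested. That covariate moved the median of the 28 genes to 0.9769 in the 118Q effect, 2.233 in the difference of effects and 2.297 between the knockins.

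A replicate block within each line called 0 of the 28 genes in the 118Q effect, the 11Q effect and the difference of effects, as without it. With the mean of its own group taken off each gene, same-numbered knockins and wild types correlated at -0.079, -0.112 and -0.029 in the 118Q line. In the 11Q line these values were 0.193, -0.171 and 0.013. With 3 arrays a group they cannot show whether equal numbers stand for a shared litter or batch. The low arrays put klotho, Kcne2 and Aqp1 under the filter level in 4 arrays each, which limits how far their lowest readings can be told apart.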
